A study of Homo sapiens with 6 samples.

Results

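Intervals bound by MYC far from any protein-coding gene were described in MIAPaCa2 cells, a human pancreatic ductal adenocarcinoma line, after exposure to medium from fibroblasts. They were taken from the authors' list of intervals common to both conditioned-medium libraries. An interval was kept when at least 10000 bp separated it from the span of every protein-coding gene in the RefSeq table of GRCh38.p14. The rule used position alone and kept 982 of 9901 intervals. The cells of both groups had first been kept for 48 hours in DMEM without serum. The CM group then received serum-free medium conditioned by primary cancer-associated fibroblasts for 3 hours, and the DMEM group received fresh serum-free DMEM. Each group had 2 libraries from a MYC chromatin immunoprecipitation and 1 input, and the inputs were not analysed here. The work rests on 1 cell line, and nothing in the labels says whether libraries of a group came from separate cultures, so the spread between them may be technical.

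MYC is a basic helix-loop-helix transcription factor that binds DNA as a heterodimer with MAX, with a preference for the E-box CACGTG and related letters such as CACGCG. Most of its peaks in tumour cells lie at promoters rich in CpG, and weaker peaks are common at enhancers, which can lie far from the gene they act on. Sequence far from protein-coding genes also holds promoters of noncoding genes. Among these are long noncoding RNAs (lncRNAs), microRNA host genes, whose transcript is cut into microRNAs, snoRNA host genes, whose introns carry guide RNAs for ribosomal RNA modification, and tRNA genes.

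The 6 sequences here are promoters of noncoding genes that carried a gene-distal interval. Those of SNHG26, MIR17HG and MIRLET7A1HG lay under the highest scores of any such promoter window. The others were picked from a list of noncoding genes, not by score. They are the only windows of that list under a gene-distal interval that held a match to the letters marked below. The examples thus do not show how often a match occurs. Each window runs from 250 bases before to 50 bases after an annotated transcript start, 5′ to 3′ on the strand of the gene, as given by RefSeq for GRCh38.p14. Capitals mark the E-box CACGTG, which reads the same on both strands. They also mark the related form CACGCG, which becomes CGCGTG when read from the opposite strand. SNHG26 is a snoRNA host gene, MIR17HG and MIRLET7A1HG host microRNAs, LINC-PINT is a p53-induced lncRNA, shown at a start inside its span that also lies at the start of the lncRNA gene LINC00513, NORAD binds PUMILIO proteins, and MALAT1 is an abundant lncRNA of nuclear speckles.
SNHG26 promoter, chr7:22853990-22854289, plus strand: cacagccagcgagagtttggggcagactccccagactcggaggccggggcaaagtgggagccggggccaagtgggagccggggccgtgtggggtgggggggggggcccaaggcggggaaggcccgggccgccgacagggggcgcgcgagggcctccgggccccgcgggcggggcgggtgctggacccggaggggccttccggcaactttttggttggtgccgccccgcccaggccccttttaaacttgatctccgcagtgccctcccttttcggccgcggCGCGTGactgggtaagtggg
MIR17HG promoter, chr13:91347437-91347736, plus strand: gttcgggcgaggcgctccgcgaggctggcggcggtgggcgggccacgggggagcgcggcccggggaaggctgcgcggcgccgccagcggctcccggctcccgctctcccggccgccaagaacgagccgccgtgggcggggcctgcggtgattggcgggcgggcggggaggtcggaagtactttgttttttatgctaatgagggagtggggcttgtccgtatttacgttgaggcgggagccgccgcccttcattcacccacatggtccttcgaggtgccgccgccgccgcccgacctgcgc
MIRLET7A1HG promoter, chr9:94166008-94166307, plus strand: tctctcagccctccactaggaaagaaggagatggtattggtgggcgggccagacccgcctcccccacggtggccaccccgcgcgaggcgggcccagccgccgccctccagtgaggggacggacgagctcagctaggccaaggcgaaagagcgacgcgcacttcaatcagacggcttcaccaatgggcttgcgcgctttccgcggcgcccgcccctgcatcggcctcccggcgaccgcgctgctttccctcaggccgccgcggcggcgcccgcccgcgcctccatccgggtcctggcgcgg
LINC-PINT promoter, chr7:130913261-130913560, minus strand: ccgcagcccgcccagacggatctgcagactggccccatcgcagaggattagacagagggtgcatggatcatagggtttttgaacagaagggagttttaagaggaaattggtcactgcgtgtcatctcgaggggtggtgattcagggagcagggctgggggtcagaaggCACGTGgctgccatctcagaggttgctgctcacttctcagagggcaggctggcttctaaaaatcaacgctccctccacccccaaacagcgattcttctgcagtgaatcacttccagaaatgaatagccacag
NORAD promoter, chr20:36050911-36051210, minus strand: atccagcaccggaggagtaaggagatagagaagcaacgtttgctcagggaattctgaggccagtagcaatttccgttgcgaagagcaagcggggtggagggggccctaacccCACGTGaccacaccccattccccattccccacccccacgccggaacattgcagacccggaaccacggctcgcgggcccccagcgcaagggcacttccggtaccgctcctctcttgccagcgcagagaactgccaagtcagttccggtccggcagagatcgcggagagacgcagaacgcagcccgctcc
MALAT1 promoter, chr11:65497488-65497787, plus strand: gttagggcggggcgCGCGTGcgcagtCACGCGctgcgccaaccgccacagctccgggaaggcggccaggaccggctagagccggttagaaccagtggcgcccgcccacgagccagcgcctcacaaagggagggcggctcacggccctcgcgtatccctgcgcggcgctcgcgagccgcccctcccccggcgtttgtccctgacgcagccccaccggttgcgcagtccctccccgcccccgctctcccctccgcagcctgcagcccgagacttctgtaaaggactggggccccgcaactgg

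The MALAT1 window held 2 capitalised matches, those of SNHG26, LINC-PINT and NORAD held 1 each, and those of MIR17HG and MIRLET7A1HG held none. A second MALAT1 window under the same interval, chr11:65498795-65499094, held none either, and the LINC00513 window overlaps that of LINC-PINT and holds the same E-box. The 6 windows are examples, and over all 146 such windows 32.2% held a match. Windows of LINC00941, DANCR and SNHG5 are not shown and held none, under intervals scoring 279, 254.5 and 223.5. These scores are above the 113 of NORAD and the 80.8 of MALAT1. The window of MIR23AHG, under an interval of 40.7, held none either. No match says only that these letters are missing from the window. Base composition differed too, with 42 CpG pairs in the MIR17HG window and 38 in that of MIRLET7A1HG, against 9 in that of LINC-PINT.

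The microRNAs at these intervals are shown by their mature sequences from RefSeq, because the MIR17HG interval was among the strongest. They include 1 arm for each of the 12 hairpins with a sequence there that lay within 1000 bp of a gene-distal interval. Capitals mark the seed, bases 2 to 8, which pairs with target messages.
hsa-miR-17-5p: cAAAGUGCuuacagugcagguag
hsa-miR-20a-5p: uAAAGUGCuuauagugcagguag
hsa-miR-18a-5p: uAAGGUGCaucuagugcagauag
hsa-miR-19a-3p: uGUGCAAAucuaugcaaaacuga
hsa-miR-19b-3p: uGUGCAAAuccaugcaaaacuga
hsa-miR-92a-3p: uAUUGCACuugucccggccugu
hsa-miR-193a-3p: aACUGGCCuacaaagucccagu
hsa-miR-193b-3p: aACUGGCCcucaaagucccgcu
hsa-miR-365a-3p: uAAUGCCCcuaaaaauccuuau
hsa-miR-4449: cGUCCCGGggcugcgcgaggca
hsa-miR-1915-3p: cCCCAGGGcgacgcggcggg
hsa-miR-5087: gGGUUUGUagcuuugcuggcaug

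Of these, miR-17-5p and miR-20a-5p shared 1 seed, miR-19a-3p and miR-19b-3p another, and miR-193a-3p and miR-193b-3p a further seed. The other 6 each had a seed of their own. The first 6 come from the single transcript of MIR17HG. The 12 hairpins lay at 7 gene-distal intervals, and 40 hairpins with a sequence lay within 10000 bp of 22 of them. MicroRNA genes without such a sequence, such as MIR1204 at the PVT1 interval near MYC, are not counted here. By the full gene table, 9 gene-distal intervals lay at microRNA genes.

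Gene-distal intervals made up 9.92% of the CM common list (exact 95% binomial interval 9.34% to 10.5%), whereas 51.0% of the sequence between the first and last gene of each chromosome lies that far from coding genes. In the nearest cases to the limit, the intervals closest inside it lay 10062 bp from NANOS3, 10064 bp from LDHA and 10111 bp from TERF2. The closest ones outside it lay 9975 bp from ITPR3, 9963 bp from JUND and 9892 bp from NEMF. By chromosome, the gene-distal share of intervals was highest on chromosome 5, with 90 of 489 (18.4%), and on chromosome 13, with 29 of 160 (18.1%). It was lowest on gene-dense chromosome 19, with 18 of 688 (2.62%). Binomial intervals here and below cover counting error only, and intervals are not replicates.

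Each interval carries a score, the mean of the authors' scores of the peaks it joins, which ranks peaks within 1 list and gives no level of binding across lists. Gene-distal intervals had a median score of 84 (quartiles 59.5 and 133), against 112 (quartiles 71 and 193) for the other 8919 intervals. Their median width was 1001.5 bp (quartiles 670 and 1490.5), against 1227 bp (quartiles 785 and 1788.5) for the others. They were thus weaker and narrower as a group, with wide overlap of both distributions. Within CM library 1, gene-distal peaks had a median width of 519.5 bp and a median score of 62, against 726.5 bp and 84 for the other peaks. Within CM library 2, the values were 447 bp and 66 for gene-distal peaks, against 620 bp and 89 for the others. The direction was shared by both libraries. Even so, the interval with the highest score of the whole list, 2423.5, was gene-distal, and the highest of the other intervals reached 2287.5.

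Median scores were lower at larger distances, though not at every step. The 304 intervals at 10 to 25 kb had a median of 90.5, the 229 at 25 to 50 kb 91, the 181 at 50 to 100 kb 78, the 179 at 100 to 250 kb 80.5, and the 89 beyond 250 kb 68.5. The share lying within 1000 bp of the end of a noncoding gene ran the same way, with 35.5%, 30.6%, 24.9%, 22.9% and 14.6% over these 5 bins. The scatter of distance against score shows the 12 highest-scoring intervals nearer than the 100 kb mark.

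**Figure D1:**
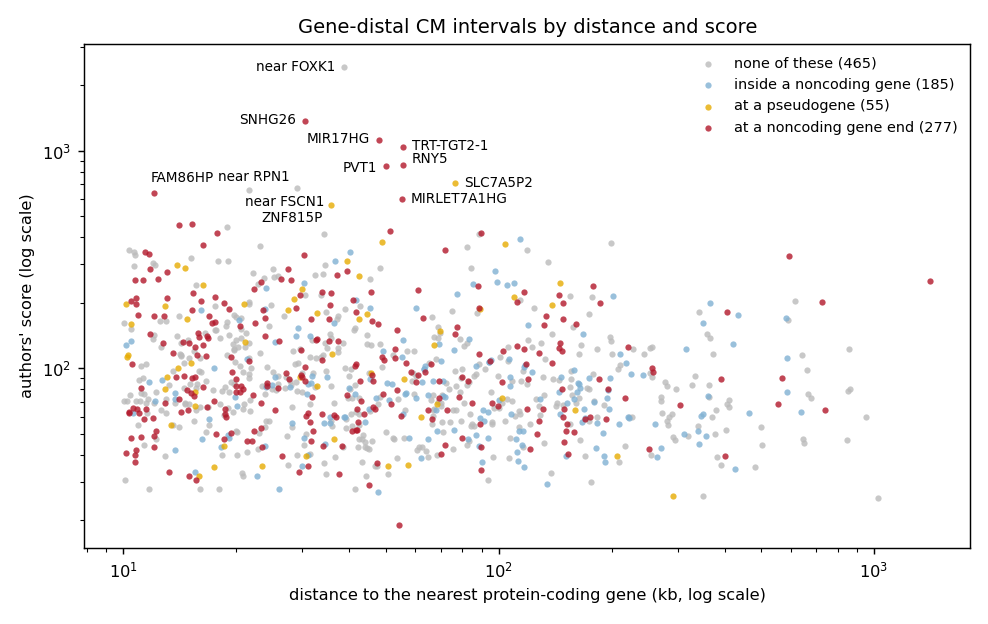
Each point is 1 of the 982 gene-distal CM intervals, with the distance to the nearest protein-coding gene in kb on the x axis and the authors' score on the y axis, both on log scales. Colours give what is annotated at the interval, and one at both a noncoding gene and a pseudogene has the colour of the noncoding gene. The 12 highest-scoring intervals are named, and the highest, near FOXK1, reaches 2423.5.

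The kinds of annotated gene at these intervals were counted beside the rest of the list. The rule itself shapes this contrast, since the others all lie within 10000 bp of coding genes, which are not among the kinds counted. How much gene-distal sequence lies in noncoding genes or pseudogenes was not computed. Within 1000 bp of an end of a noncoding gene lay 277 gene-distal intervals (28.2%), against 2218 of the others (24.9%), with 25.2% over the whole list. A further 185 gene-distal intervals (18.8%) lay inside a noncoding gene away from its ends, against 199 of the others (2.23%). A pseudogene, without a noncoding gene counted above, lay at 55 gene-distal intervals (5.60%), against 143 of the others (1.60%). Intervals at both kinds were counted under the noncoding gene alone, so these are not all the intervals at pseudogenes. No annotated gene of these kinds lay at 465 gene-distal intervals (47.4%), against 6359 of the others (71.3%), with 68.9% over the whole list. Among the 277, 241 were at lncRNA genes, 31 at tRNA genes, 9 at microRNA genes, 5 at snRNA genes and 3 at snoRNA genes, and an interval could count under several types. The strand was known for 179 of the 277, and 151 of them (84.4%, exact 95% binomial interval 78.2% to 89.3%) lay at the start of such a gene. Of these 151, 123 lay at a start alone and 28 at both a start and a far end. A further 28 lay at a far end alone. The share at a start was not computed for the other intervals, so it has no background here. Gene-distal intervals had a median score of 91.5 at noncoding ends, 76 inside noncoding genes and 82 where no gene was annotated. The 55 counted under pseudogenes had the highest median, 117.

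The highest-scoring gene-distal interval, chr7:4640584-4643609, had no gene annotated within it. It lay 38685 bp upstream of FOXK1, a forkhead transcription factor, and 70867 bp from the nearest noncoding gene. Its highest peak scored 2315 and 2532 in the CM libraries and 1015 and 1826 in the DMEM libraries. In each library's own list it stood near the top, with its lowest percentile, 99.97, in DMEM library 1. A strong peak was thus called there in both media.

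The next ranks belonged largely to noncoding genes. The interval at the SNHG26 promoter shown above, chr7:22853269-22855783, scored 1374 and lay within 1000 bp of an end of the snoRNA gene SNORD93. Its peaks scored 1481 and 1267 in CM and 601 and 779 in DMEM, with percentiles of 99.9 in each of the lists but DMEM library 2, where it was 99.7. At MIR17HG, the interval chr13:91346598-91350663 scored 1121.5 and held the promoter window, reached into the MIR17 hairpin and had the other 5 hairpins within 650 bp. Its peaks scored 1299 and 944 in CM and 324 and 427 in DMEM. Its percentiles were 99.8 and 99.6 in CM and 98.6 and 97.8 in DMEM, near the top of all 4 lists. Percentiles here and below give a rank within 1 list. The lists hold 15304 and 12797 peaks in CM and 4657 and 7652 in DMEM, and a list with fewer weak peaks gives the same peak a lower percentile, so no change is read from them. The map of this gene shows 1 peak in each CM library over the promoter and 2 shorter peaks in each DMEM library.

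**Figure D2:**
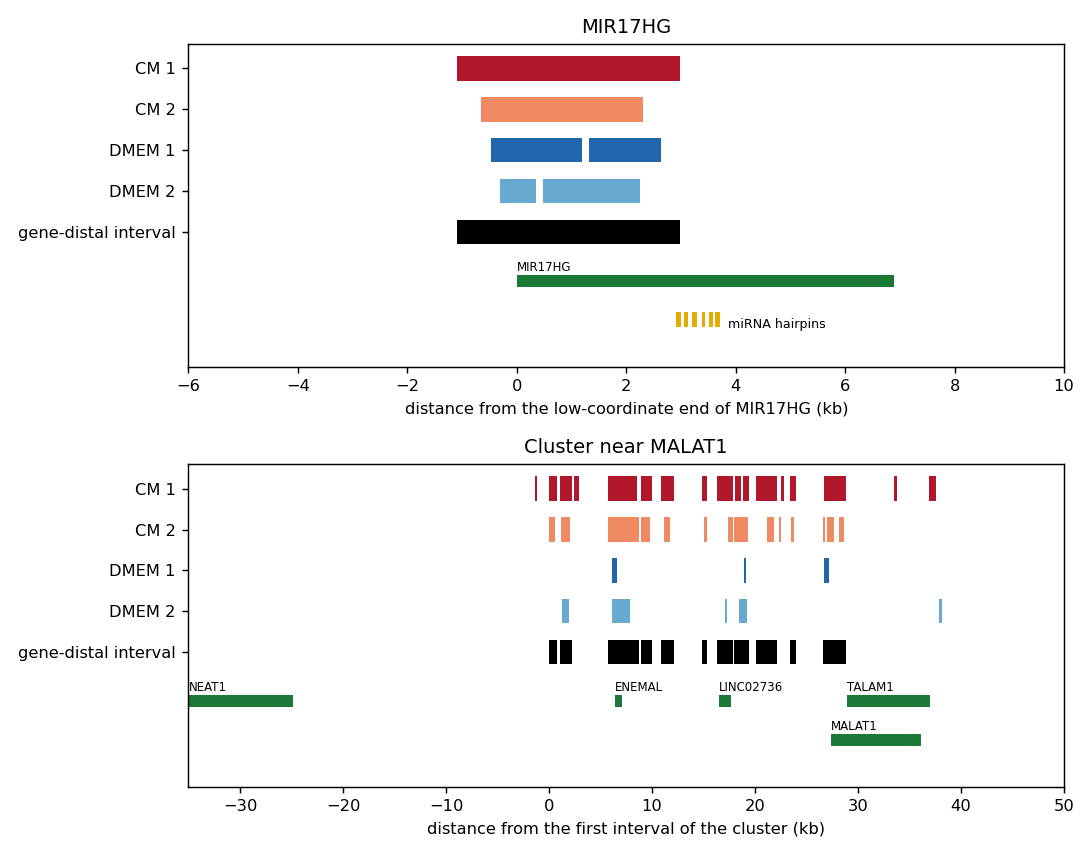
Peaks of each library (upper 4 tracks), gene-distal CM intervals (black) and annotated noncoding genes (green) and microRNA hairpins (yellow), against distance in kb from the low-coordinate end of MIR17HG (top) and from the first interval of the cluster near MALAT1 (bottom). At MIR17HG all 4 libraries have a peak over the gene start; the window near MALAT1, chosen for its number of CM intervals, holds 17 and 14 CM peaks and 3 and 5 DMEM peaks.

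MIRLET7A1HG, host of let-7 microRNAs, carried the interval chr9:94165093-94167840 with a score of 599.5. Its peaks scored 721 and 478 in CM and 223 and 411 in DMEM, and 2 let-7 hairpins lay 8116 and 8506 bp away. Both members of the miR-193 family shown above were close to weaker intervals. MIR193A overlapped an interval scoring 156, and MIR193B lay 84 bp from one scoring 195.5. Both of these intervals overlapped a peak of DMEM library 2 alone. An interval with MIR365A 853 bp away scored 51.7.

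Genes transcribed by RNA polymerase III were also among the top intervals. TRT-TGT2-1, a threonine tRNA gene on chromosome 1, had an interval of 1043.5, with peaks of 1019 and 1068 in CM and 244 and 369 in DMEM. RNY5, which encodes a small cytoplasmic Y RNA, had one of 860.5 on chromosome 7, with peaks of 846 and 875 in CM and 169 and 531 in DMEM. Most tRNA intervals were far weaker. The 31 gene-distal intervals at tRNA genes lay at 43 of the 451 tRNA genes in the table, and their median score was 79.5. Of these 31, 9 overlapped a peak of DMEM library 1, 19 one of DMEM library 2, and 12 neither (29%, 61.3% and 38.7%). Over all 277 intervals at noncoding ends these shares were 32.9%, 60.6% and 37.9%, close to those at tRNA genes.

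Further top intervals lay at pseudogenes or in sequence without annotation. SLC7A5P2, a pseudogene of the amino acid transporter gene SLC7A5, had an interval of 710 on chromosome 16, with peaks of 939 and 481 in CM and 303 and 696 in DMEM. An interval of 669.5 lay 29025 bp from RPN1, which encodes a subunit of the oligosaccharyltransferase, with peaks of 669 and 670 in CM and 329 and 368 in DMEM. Between ACTB, the gene of beta-actin, and FSCN1, that of the actin bundling protein fascin, an interval of 657.5 lay 21550 bp from FSCN1. It had peaks of 591 and 724 in CM and 69 and 281 in DMEM, with percentiles of 97.4 and 98.7 in CM and 59.8 and 93.6 in DMEM, lists of unequal length. The lowest of the 10 highest scores, 636.5, was at the pseudogene FAM86HP and the lncRNA gene LINC02021 on chromosome 3, with peaks of 554 and 719 in CM and 103 and 320 in DMEM. Values at pseudogenes are uncertain, since how reads matching several copies were treated is not given in the sources used here.

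**Figure D3:**
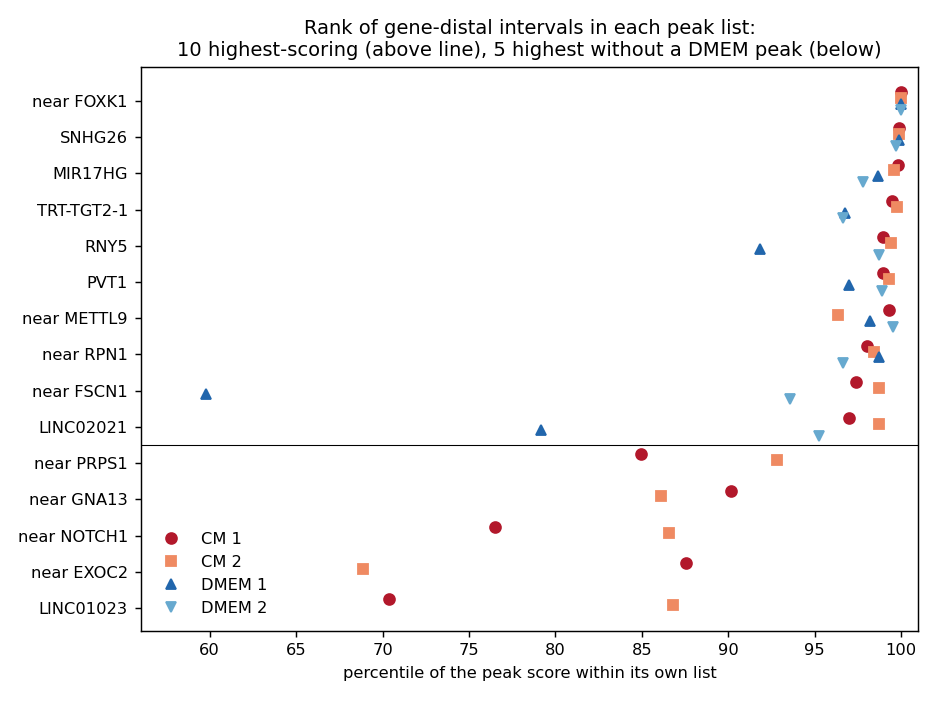
Percentile of the highest peak within each library's own list (x axis) for the 10 highest-scoring gene-distal intervals and, below the line, the 5 highest-scoring ones without a DMEM peak; near METTL9 stands for the interval at SLC7A5P2. Points of the upper group lie at 91.8 or above except those in DMEM library 1, near FSCN1 and at LINC02021, and the lower group has CM points alone by its choice; the lists differ in length, which shifts percentiles.

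Overlap with peaks called in DMEM was the readout that the rule did not use. Of the 982 gene-distal intervals, 230 (23.4%, exact 95% binomial interval 20.8% to 26.2%) overlapped a peak of DMEM library 1 by at least 1 bp, against 37.4% of the other intervals and 36.0% of the whole list. For DMEM library 2 the count was 464 (47.3%, interval 44.1% to 50.4%), against 63.5% of the others and 61.9% of the whole list. Both DMEM lists were overlapped by 210 (21.4%), against 35.1% of the others and 33.8% overall. A peak in neither was found for 498 (50.7%, interval 47.5% to 53.9%), against 34.2% of the others and 35.8% overall. The share with a DMEM peak was thus lower for gene-distal CM intervals than for the others in each DMEM list. The DMEM lists differed from each other, with 254 gene-distal intervals in DMEM library 2 alone and 20 in DMEM library 1 alone. These intervals are no replicates of a condition, so the difference has no test over samples.

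Much of this difference went with the score. The whole list was divided by score into 4 bins of nearly equal size. The lowest bin held 37.0% of gene-distal intervals, against 23.7% of the others, and the highest bin held 14.3%, against 26.2% of the others. Within the bins, low to high, a DMEM library 2 peak was found for 16.8%, 42.9%, 73.8% and 95.7% of gene-distal intervals, against 22.2%, 48.1%, 80.6% and 98.8% of the others. A DMEM library 1 peak was found for 2.48%, 15.8%, 32.0% and 80% of gene-distal intervals, against 4.73%, 13.6%, 40.1% and 86.6% of the others. The gene-distal share was lower in every bin except the second for DMEM library 1. Averaged within bins, the difference (gene-distal minus other) was -5.31 percentage points for DMEM library 2 and -2.87 for DMEM library 1, where it had been -16.3 and -14.0 without regard to score.

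**Figure D4:**
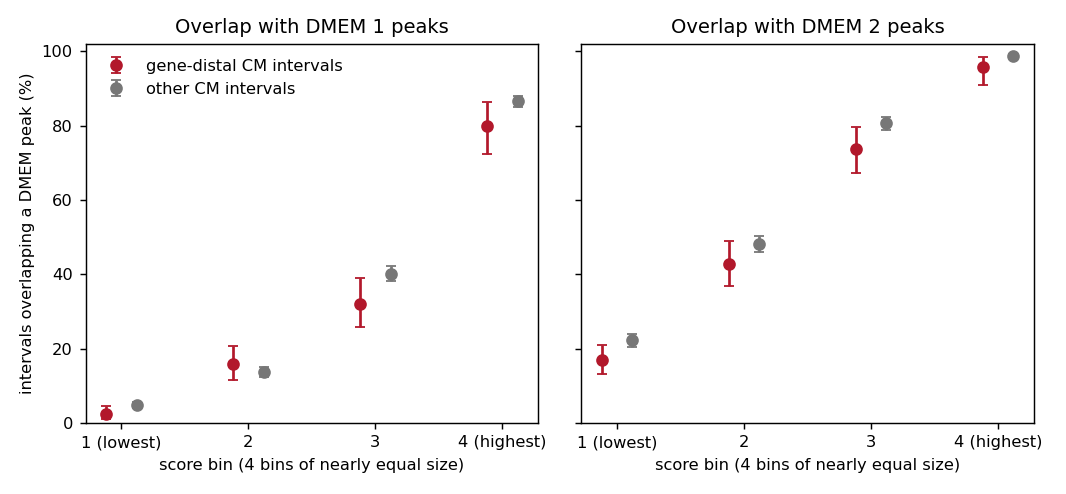
Share of CM intervals that overlap a peak of DMEM library 1 (left) or DMEM library 2 (right), in percent, by score bin of the whole list, low to high; points give the share and bars its exact 95% binomial interval. In the highest bin 80% of gene-distal intervals and 86.6% of the others overlap DMEM library 1, and in the lowest bin 2.48% of gene-distal intervals and 4.73% of the others do.

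The share without a DMEM peak also varied among gene-distal intervals. With distance, a DMEM library 2 peak was found for 53.9%, 50.7%, 44.8%, 41.9% and 31.5% over the 5 bins from 10 kb to beyond 250 kb. For DMEM library 1 the shares were 27.3%, 27.1%, 18.8%, 21.2% and 14.6%, not lower at every step. By annotation, a DMEM library 2 peak was found for 60.6% of intervals at noncoding ends and 56.4% of those counted under pseudogenes. It was found for 38.4% of those inside noncoding genes and 41.7% of those without annotation. For DMEM library 1 these 4 shares were 32.9%, 32.7%, 13.5% and 20.6%. Scores were also lower at large distances, as given above. They were lower inside noncoding genes and without annotation than at noncoding ends or pseudogenes. The part of scores in these shares was not tested.

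The 5 highest-scoring intervals without a DMEM peak all fell in the highest score bin, which starts at 186. They were the only gene-distal ones of that bin without a DMEM peak, 5 of 140 (3.57%), against 18 of 2341 others (0.769%). They lay near PRPS1, an enzyme of phosphoribosyl pyrophosphate synthesis, with a score of 284.5, and at the pseudogene AMZ2P1 near GNA13, a G protein subunit, with 266.5. The others lay 21562 bp upstream of NOTCH1, a receptor of cell fate signalling, with 201, near EXOC2, a subunit of the exocyst, with 192.5, and at the lncRNA gene LINC01023 upstream of FER, a tyrosine kinase gene, with 188. Peaks at PRPS1 scored 227 and 342 in the CM libraries, those at NOTCH1 163 and 239, and those at LINC01023 135 and 241. Their percentiles within the CM lists ran from 68.9 at EXOC2 to 92.8 at PRPS1, below those of the 10 strongest intervals.

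Peak lists of the single libraries gave the same feature as a share. Gene-distal peaks were 1932 of 15304 (12.6%) and 1375 of 12797 (10.7%) in the CM libraries, and 308 of 4657 (6.61%) and 606 of 7652 (7.92%) in the DMEM libraries. The means were 11.7% ± 1.33 in CM and 7.27% ± 0.923 in DMEM (SD, n = 2 libraries each), a difference of 4.42 percentage points. Both CM values were above both DMEM values, and the exact two-sided permutation p was 0.333, the smallest that 2 against 2 libraries allow. The CM lists are longer, and the read depth is unknown. Over the 4657 top-scoring peaks of each library, the shares were 7.30% and 6.38% in CM, against 6.61% and 6.85% in DMEM, with overlapping groups and a difference of 0.107 percentage points.

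**Figure D5:**
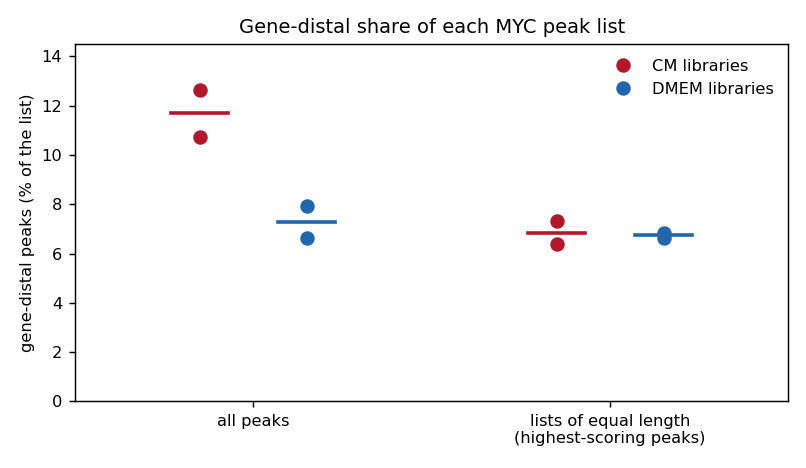
Gene-distal peaks as a percentage of each library's list (y axis), for all peaks and for the 4657 highest-scoring peaks of each list; points are libraries and bars the mean of 2. With all peaks the CM libraries, at 12.6% and 10.7%, lie above the DMEM libraries, and with lists of equal length the groups overlap.

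The share of peaks found again in the second library of a group was lower for gene-distal peaks than for other peaks. Of gene-distal peaks of CM library 1, 53.3% overlapped a peak of CM library 2, against 70.7% of its other peaks. In the reverse direction it was 83.8% of gene-distal peaks, against 89.8% of the others. Of gene-distal peaks of DMEM library 1, 76.9% overlapped a peak of DMEM library 2, against 81.3% of its other peaks. In the reverse direction it was 36.3% of gene-distal peaks, against 47.6% of the others. Gene-distal peaks also had lower median scores in each library, in DMEM 54.5 and 63, against 60 and 75 for the others. The part of score in these shares was not tested. Of 206 gene-distal intervals common to both DMEM libraries, 204 (99.0%) overlapped the CM common list, against 99.4% of the other DMEM common intervals and 99.3% of all of them, a share near the background. The other 2, near PSMA6 and at LINC00649 near ATP5PO, overlapped a peak of CM library 1 alone.

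Gene-distal intervals often lay in groups. Another CM common interval lay within 12.5 kb of 431 gene-distal intervals (43.9%), against 34.5% of the other intervals. Joined over that distance, the 982 intervals formed 739 loci, of which 581 held 1 interval, 158 held at least 2 and 47 held at least 3. The locus with the most intervals, 11, spanned chr11:65470401-65499226, held the lncRNA gene ENEMAL and ended at the MALAT1 promoter shown above. Its scores ran from 50 to 165.5, with the highest at ENEMAL, where peaks scored 198 and 133 in CM and 35 and 91 in DMEM. At the MALAT1 promoter the interval scored 80.8 and had peaks of 142 and 99 in CM and 65 in DMEM library 1, with none in DMEM library 2. Of the 11, 5 overlapped a DMEM peak. The locus was chosen for its CM intervals and the CM lists are longer, so the larger number of CM peaks in its map is no finding.

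Counts without a DMEM peak at single loci stand beside 50.7% over all gene-distal intervals, and beside 81.5%, 54.2%, 23.8% and 3.57% in the 4 score bins described above, low to high. Upstream of ERRFI1, which encodes a feedback inhibitor of the EGF receptor, 11 intervals lay 50507 to 128449 bp away, mostly inside the divergent lncRNA gene ERRFI1-DT or the neighbouring LOC107984915. A run of 7 of these formed 1 locus, chr1:8113506-8155138. Their scores ran from 35 to 129, and 8 of the 11 had no DMEM peak. Further along chromosome 1, 6 intervals at chr1:8197008-8218253, around LINC01714 and upstream of SLC45A1, scored up to 349.5. The highest had peaks of 374 and 325 in CM and 48 and 120 in DMEM, and 4 of these 6 overlapped a DMEM peak. Upstream of SPRY4, an inhibitor of receptor tyrosine kinase signalling, 9 intervals lay inside the lncRNA gene SPRY4-AS1, with scores from 37.5 to 189, of which 1 overlapped DMEM library 1 and 5 DMEM library 2. SPRY4 was chosen after its values were seen, and its intervals lie in more than 1 locus.

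Between TP63, an epithelial transcription factor gene, and P3H2, a collagen prolyl hydroxylase gene, 6 intervals at chr3:189908451-189942448 scored 77 to 311. The highest, 17891 bp from P3H2, had peaks of 440 and 182 in CM and 83 and 104 in DMEM, and 4 of the 6 had no DMEM peak. At chr12:75640775-75663068, upstream of the ribosome biogenesis gene KRR1 and inside LOC105369844, 6 intervals scored 29.5 to 91.5, and 5 had no DMEM peak. Near DLK1, a membrane protein gene related to Notch ligands, 5 intervals at chr14:100677722-100694269 scored up to 257.5, and 3 overlapped a DMEM peak.

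The widest and the farthest intervals were mostly not the strongest. The widest, 6346 bp near SOCS6, a suppressor of cytokine signalling, scored 105, and the next widest lay near ATF7IP (5378 bp, score 373), BCAS1 (5188 bp, 151), VCPKMT (5153 bp, 248) and at LNCATV near TOMM20 (4782 bp, 120.2). All 5 overlapped peaks of both DMEM libraries. The interval farthest from coding genes, 1410635 bp from UQCRFS1 on chromosome 19, lay at the lncRNA gene LINC00662 and scored 251, with peaks of 263 and 239 in CM and 111 and 214 in DMEM. The next farthest, 1023845 bp from CADM2, scored 25.3 and had no DMEM peak. The 3 after it, near NUDT12 and SLC4A3, scored 60 to 123, and 1 of these overlapped a DMEM peak.

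Nearest protein-coding genes were set against lists of genes that the treatment could involve. The nearest gene is a position here, not a target. In all, 592 of 20056 coding genes (2.95%) were nearest to a gene-distal interval, and with known strand 386 intervals lay upstream of the nearest gene and 356 downstream. Of 27 AP-1 and immediate-early genes, which growth factors induce within minutes, 6 were nearest to at least 1 interval (22.2%), with 14 intervals in all. An interval 23980 bp downstream of JUN had a score of 233, with peaks of 290 and 342 in CM and 24 and 117 in DMEM. One 33633 bp downstream of DUSP1, a MAP kinase phosphatase gene, scored 218, with peaks of 247 and 189 in CM and 49 and 69 in DMEM. Upstream of KLF6, a zinc finger factor gene, an interval of 89.7 had peaks of 115 and 109 in CM and 38 in DMEM library 2, with none in DMEM library 1.

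Of 47 growth factor, cytokine and receptor genes, 7 were nearest to an interval (14.9%), with 15 intervals. FGF1, a fibroblast growth factor gene, had the highest, 189, at 124308 bp, with peaks of 296 and 197 in CM and 61 and 105 in DMEM. SHH, the gene of the ligand sonic hedgehog, had one of 168 at LOC389602, with peaks of 181 and 155 in CM and 27 and 28 in DMEM. Of 33 genes of the cytoskeleton and adhesion, 4 were nearest to an interval, with 8 intervals. ACTB had the highest of these, 258.5, with peaks of 311 and 206 in CM and 141 and 111 in DMEM. ITGB1, an integrin subunit gene, followed with 85.7 at the divergent lncRNA gene ITGB1-DT, and no DMEM peak at that interval. Of the 4 intervals nearest to ITGB1, 2 overlapped a peak of DMEM library 2 and 2 had no DMEM peak. Of 34 epithelial, pancreatic and mesenchymal transcription factor genes, 4 were nearest to an interval, with 6 intervals. EHF, an epithelial ETS factor gene, had the highest, 135, with peaks of 184 and 160 in CM and 83 and 89 in DMEM. The lengths of the gaps between coding genes were not taken into account in these counts.

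Of 23 genes of the MYC network, 2 were nearest to an interval, MYC with 10 intervals and PIM1, a kinase gene, with 1. The strongest near MYC, 845 at 50173 bp, lay at an end of PVT1, a lncRNA gene beside MYC, with peaks of 850 and 840 in CM and 252 and 557 in DMEM. Next came 246 inside PVT1, with peaks of 328 and 164 in CM and 28 in DMEM library 2, and 175 at 432982 bp. Of the 10, 6 had no DMEM peak, against 50.7% of all gene-distal intervals. Of 48 listed noncoding genes found in the table, 15 carried a gene-distal interval, 31 intervals in all. The share over all noncoding genes was not computed, so this count has no background. PVT1 led by number with 7 and LINC-PINT followed with 5, of which 5 and 3 had no DMEM peak. The intervals of 845 and 246 are counted under both MYC and PVT1. LINC00941, DANCR, SNHG5 and NORAD each carried 1 interval, with scores of 279, 254.5, 223.5 and 113, and each of these overlapped both DMEM lists. Elsewhere on the list, intervals at NEAT1 and MIR23AHG had no DMEM peak. Those at CASC8, CCAT1, LINC00673, MIR222HG and VTRNA2-1 had none in DMEM library 1, and that at MALAT1 had none in DMEM library 2.

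E-box letters were counted in RefSeq promoter windows, since the sequence of the intervals themselves was not analysed here. Among 146 windows of 131 noncoding genes that overlapped a gene-distal interval, 11.0% held CACGTG, which is its own reverse complement, and 23.3% held CACGCG or CGCGTG. Among 6113 windows of noncoding genes as far from coding genes but without a CM common interval, the shares were 4.12% and 2.52%. Other promoters overlapping a CM common interval, 9361 windows, had 12.4% and 23.8%, and all 35116 windows had 7.26% and 11.4%. Gene-distal noncoding promoters with an interval were thus closer to the other promoters with an interval than to those without. Median GC content moved with these shares, at 63.3% in windows with a gene-distal interval, 45.7% in distal windows without one and 67.3% in the other promoters with one. Its part in the motif shares was not tested, and windows of 1 gene can overlap.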

How the data were processed

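MYC immunoprecipitates were sequenced in 4 libraries, 2 of CM and 2 of DMEM. The submitters' processing notes name GRCh38 as the build, MACS2 2.1.1.20160309 among the tools, and also Bowtie2 2.3.4, Trim Galore 0.4.3, Picard 2.9.0 and SAMtools 1.3.1. How the inputs were used is not stated there. The authors deposited, per library, peaks with a score of at least 13, whose definition the files do not state, and common lists. In the CM common list, the span and mean score (within 0.01) of all 9901 intervals matched the peaks each names, and 1779 joined more than 2 peaks. The files used here hold no counts, so depth is unknown.

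Distances, overlaps (at least 1 bp), exact Clopper-Pearson 95% intervals and an exact permutation test over 6 relabellings were computed with Python 3.11.15, pandas 2.3.3, numpy 2.4.6 and SciPy 1.17.1, after tests on simulated intervals. Figures used matplotlib 3.10.9. Genes, promoters and microRNAs came from RefSeq GRCh38.p14 tables; strand came from the sequence tables and was unknown for the nearest coding gene of 240 intervals. The planned motif search was run in promoters alone.

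Named intervals were the 10 highest by score, the 5 widest, the 5 farthest, the 5 highest with both DMEM lists and the 5 highest with neither, the 6 loci with most intervals, the 10 highest at noncoding ends, and up to 4 per gene list. The rule, lists and alternatives were chosen with earlier results of these data known. Other distances, overlaps, score limits, joining distances and left-out libraries were tried.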

Additional observations from a re-analysis of the deposited data

How the results depend on the processing

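With a minimum distance of 5000, 25000 or 50000 bp, the gene-distal share was 11.6%, 6.85% or 4.53%, and at 50000 bp 449 intervals remained. Away from genes of every type it was 2.86% (283 intervals), and among scores at or above the median 6.98% (346). Own lists of single CM libraries gave 1375 to 1932 peaks and shares of 10.7% to 12.6%. At 50000 bp the overlap differences (gene-distal minus other) were -17.9 points for DMEM library 1, -21.9 for DMEM library 2 and 22.2 for no DMEM peak. Away from noncoding ends, chosen after seeing the data, they were -17.7, -21.5 and 21.6. Among scores at or above the median they were -12.3 for DMEM library 1, -7.19 for DMEM library 2 and 7.08 for no DMEM peak. Within the 4 score bins they were -2.87, -5.31 and 5.80. The median width difference was -275.5 bp at 50000 bp and -207 to -173 bp in single CM lists. The median score difference was -29.2 at 25000 bp, -33.5 at 50000 bp and -23 to -22 in single CM lists. The share at noncoding ends was 18.8% for overlap of the end itself, 42.7% within 5000 bp and 33.2% with pseudogenes included. The difference in gene-distal share between CM and DMEM libraries was 3.48 to 5.36 points without 1 library. With lists of equal length that difference was 0.107 points. The count of intervals was 678 at 25000 bp and 1144 at 5000 bp. Among the differences rerun, none between gene-distal and other intervals, or between CM and DMEM libraries, changed sign. The shares at noncoding ends were rerun for gene-distal intervals alone, so their contrast with the others was not checked.

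The replicate numbers are shared by name alone. Over 3342 intervals with peaks in all 4 libraries, deviations of same-numbered libraries had a correlation of 0.0543. With the replicate block the difference in gene-distal share was 4.42 points, exact paired permutation p 0.5, the smallest that 2 pairs allow. Depth, unknown here, limits every share of peaks.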

Other observations

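The pseudogenes of the FAM86 family, which derive from a gene now named EEF2KMT that encodes a methyltransferase of elongation factor 2, recurred among the gene-distal intervals, a group singled out after its values were seen. The table holds 15 genes of the family, 3 coding and 12 pseudogenes, and 8 pseudogenes carried 10 gene-distal intervals. The share of all pseudogenes with such an interval was not computed. The highest at each scored from 132 at FAM86FP to 636.5 at FAM86HP, each over an end of the pseudogene. FAM86JP had one of 429, with peaks of 529 and 329 in CM and 111 and 250 in DMEM. EEF2KMT itself had an interval of 172 at one end. Of the 10 family genes with an interval, the highest interval of 9 overlapped both DMEM lists. These highest intervals fell in score bins 3 and 4. There, both lists were overlapped by 29.6% and 79.3% of gene-distal intervals, and by 37.3% and 86.1% of the others. The count is therefore not read as a trait of the family. The other 5 genes of the family had none. How reads matching several copies were placed is not given in the sources used here, so values at single copies are uncertain. Without these intervals 972 gene-distal intervals remain.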
